A study of Mus musculus with 10 samples.

Results

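Retinoid genes make, move, break down and sense vitamin A derivatives, and 9 of them were followed in bulk RNA sequencing of mouse cerebral cortex from mice carrying a conditional knockout of Brap and from control mice. The genes were Rbp4, Rpe65, Rdh10, Aldh1a1, Aldh1a7, Cyp26b1, Rara, Rarb and Rxrg. They were found by matching the identifiers of the deposited count table, without their versions, to gene symbols, and all 9 had a row among the 14276 genes of that table. The list was drawn up with the difference between the BrapcKO and control libraries already known, so that difference is given below as a description, with its standard error (SE) and with no test for these 9 genes.

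Retinol travels in blood bound to a carrier, is oxidised in cells first to retinal and then to retinoic acid, and the acid is removed by hydroxylases of the CYP26 family. Retinoic acid binds nuclear receptors, the RARs, which sit on DNA as pairs with an RXR and change the transcription of nearby genes. In the brain the pathway is best known for patterning the embryo, and in the adult the receptors RAR beta and RXR gamma are known for their high level in the striatum, the dopamine-receiving region beneath the cortex.

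The BrapcKO group held 5 libraries, 3 of the genotype flox/ko Cre+ (BrapcKO 04, 07 and 21) and 2 of flox/flox Cre+ (BrapcKO 05 and 06). The control group held 5 libraries, 3 of flox/wt Cre- (control 08, 22 and 23) and 2 of flox/flox Cre- (control 09 and 24). All mice were C57BL/6 and 3 months old, flox marks an allele of Brap that Cre recombinase can cut, wt the normal allele and ko one that is deleted. Brap encodes a ubiquitin ligase that restrains Ras to MAP kinase signalling. The promoter that drives Cre and the exons removed are not named in the labels. Cre was present in all BrapcKO libraries and in no control library, so Cre itself and the loss of Brap cannot be told apart. They also do not say that each library came from its own mouse, so p-values speak only of the spread between libraries, which may be partly technical.

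Totals ran between 17188901 and 28991874 counts per library, so that 1 CPM (the usual scaling of a count to its library's total) stood for 17.2 to 29 counts. The titles also carry B1 or B2, a code that the labels leave unexplained, and it split both groups. B2 covered 1 BrapcKO and 3 control libraries, with 26356508 to 28991874 counts, and B1 covered 4 BrapcKO and 2 control libraries, with 17188901 to 20955211 counts. The code was a term in the fit. Reads of 4 Y-linked genes were high in 4 of 5 BrapcKO libraries (all but BrapcKO 04) and in 1 of 5 control libraries (control 23), so sex was uneven between the groups. The mean log2 CPM of those 4 genes is called the Y-linked score. The target, Brap, stood no lower in libraries labelled BrapcKO, at 104 ± 9.15 CPM, against 88.4 ± 8.58 CPM in control libraries (SD, n = 5 each, log2 difference 0.23, SE 0.10, adjusted p = 0.18 by edgeR). One count per gene does not show the loss of part of a gene.

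Of the 9 retinoid genes, 2 had far lower levels in BrapcKO cortex, Rpe65 and Aldh1a7. Both receptors Rarb and Rxrg were higher in BrapcKO libraries than in control libraries of the same title code. The other 5, Rbp4, Rdh10, Aldh1a1, Cyp26b1 and Rara, had log2 differences between -0.03 and 0.37. In the edgeR fit 4 of the 9 passed an adjusted p of 0.05, 2 higher and 2 lower, where 8.07% of all genes did (1152 of 14276), 3.12% higher (446 genes) and 4.95% lower (706 genes). These genes were picked on that contrast, so nothing is read from the count.

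**Figure D1:**
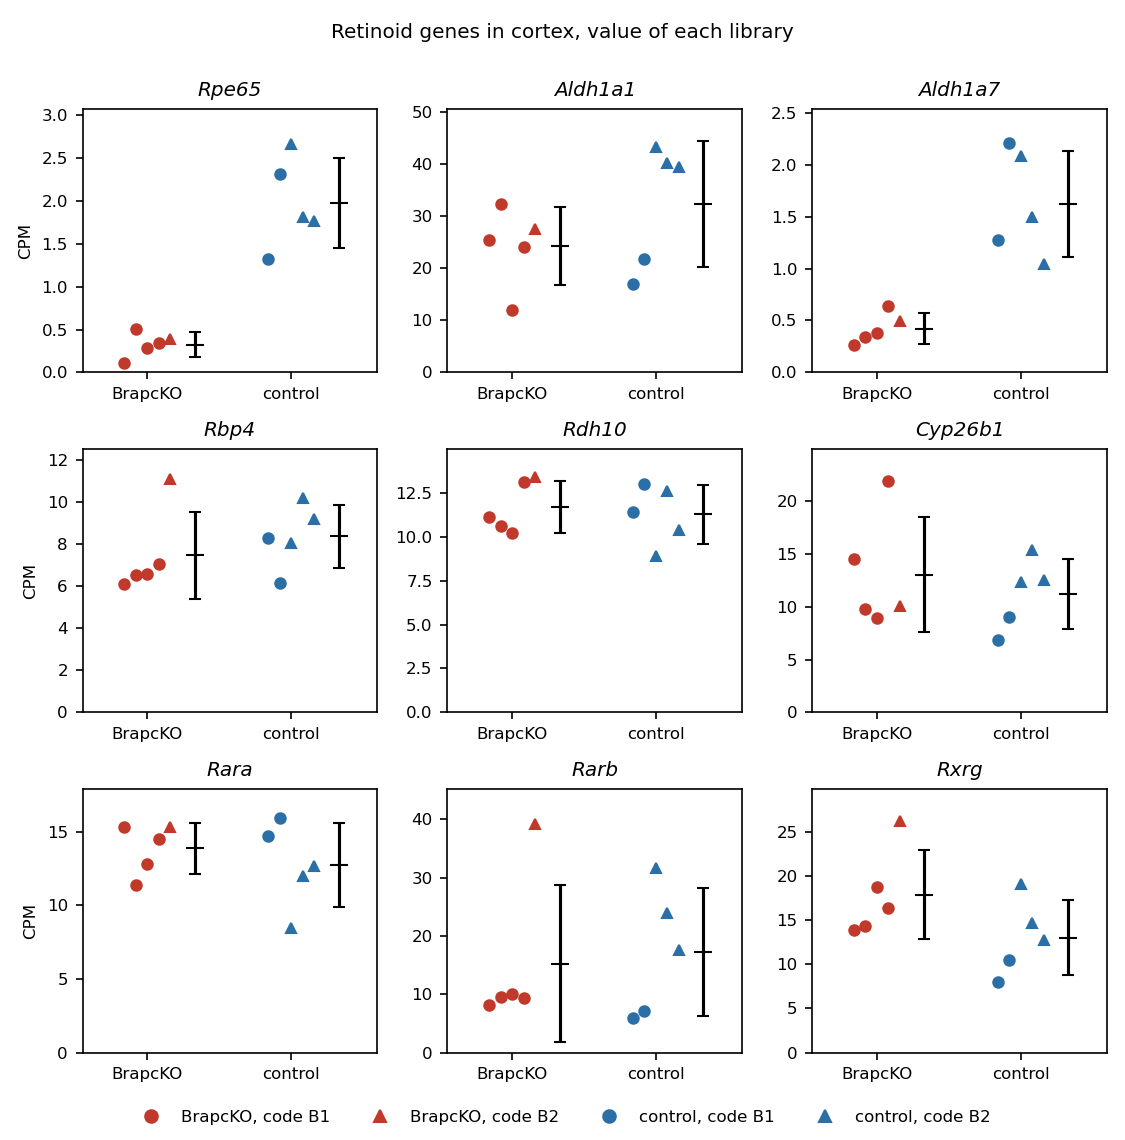
Level of each retinoid gene in CPM (vertical axis, from 0) in each of 5 BrapcKO (left) and 5 control (right) libraries, with circles for title code B1, triangles for B2 and black bars for mean and SD. Rpe65 and Aldh1a7 do not overlap between the groups, and Rarb separates by title code, with all B1 libraries at 9.96 CPM or less and all B2 libraries at 17.5 CPM or more.

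Divided by exon length, the levels in BrapcKO libraries were highest for Rxrg (7.78 ± 2.18 CPM per kilobase, SD, n = 5), followed by Rbp4 (5.56 ± 1.54) and Aldh1a1 (4.9 ± 1.52), all in the same unit. The length was that of all annotated exons of a gene, merged. For Aldh1a1 it was 4937 bases, while its transcript compared below has 2053, so the order depends on the length used. Rara (3.18 ± 0.392), Rarb (2.89 ± 2.54), Rdh10 (2.81 ± 0.36) and Cyp26b1 (2.43 ± 1.01 CPM per kilobase) came next. Neighbours among these genes, from Rara to Cyp26b1, differed by less than the larger SD of the pair. Aldh1a7 (0.204 ± 0.0712) and Rpe65 (0.168 ± 0.0766 CPM per kilobase) were the lowest of the 9 and did not differ beyond their spread. In control libraries Aldh1a1 (6.54 ± 2.43), Rbp4 (6.24 ± 1.12) and Rxrg (5.66 ± 1.84 CPM per kilobase) led and lay within each other's SD. Rarb (3.27 ± 2.08), Rara (2.93 ± 0.652), Rdh10 (2.71 ± 0.403) and Cyp26b1 (2.09 ± 0.624 CPM per kilobase) again lay close together there. Rpe65 (1.02 ± 0.269) and Aldh1a7 (0.784 ± 0.246 CPM per kilobase) closed the order in control libraries too.

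Rbp4, which encodes the retinol carrier of blood plasma, lies at chr19:38116629-38125281 on the minus strand (GRCm38, as all positions here). It stood at 6.12, 6.51, 6.56, 7.04 and 11.1 CPM in BrapcKO 04, 05, 06, 07 and 21, against 8.29, 6.17, 8.03, 10.2 and 9.17 CPM in control 08, 09, 22, 23 and 24. The groups overlapped, and BrapcKO 21 was the highest of all 10 libraries. The log2 difference, BrapcKO minus control with the title code as a term, was 0.02 (SE 0.14).

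Rpe65, at chr3:159599175-159625321 on the plus strand, encodes the isomerase that remakes 11-cis retinol in the retinal pigment epithelium of the eye. It had 0.104, 0.505, 0.283, 0.342 and 0.389 CPM in BrapcKO 04, 05, 06, 07 and 21, against 1.32, 2.32, 2.67, 1.82 and 1.77 CPM in control 08, 09, 22, 23 and 24. Every BrapcKO library lay below every control library. The counts behind these levels were small, 2 to 11 reads per BrapcKO library and 26 to 77 per control library. Summed over a group they gave 0.33 CPM in BrapcKO (35 reads, exact 95% Poisson interval 0.23 to 0.459 CPM) and 1.99 CPM in control libraries (246 reads, 1.75 to 2.25 CPM), intervals that cover counting error only. The log2 difference was -2.5 (SE 0.36), or 0.177-fold. Within B1 alone it was -2.55 and within B2 alone, with 1 BrapcKO library, -2.42.

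Every gene in the table had at least 0.582 CPM in at least 5 libraries. All 5 BrapcKO libraries were under that level for Rpe65, so a row for Rpe65 required all 5 control libraries to be above it, and the size of its difference is partly fixed by how the table was filtered. The same holds in part for Aldh1a7, with 4 BrapcKO libraries and no control library under 0.582 CPM.

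Cortex is not a tissue in which Rpe65 is known to act, so genes of the pigment epithelium were looked at beside it. Of 12 listed markers 5 had a row among the genes analysed here, and 0 passed an adjusted p of 0.05 by edgeR, DESeq2 or limma-voom (1 lower at an unadjusted p under 0.05 in edgeR). Their summed level was 24.8 to 34.8 CPM in BrapcKO and 27.4 to 39.5 CPM in control libraries. The pigment genes Tyr, Tyrp1, Dct and Pmel, the opsin Rgr, the retinol acyltransferase Lrat and Slc45a2 had no row among them. Rlbp1, which binds 11-cis retinal, had a log2 difference of -0.49 (SE 0.22, adjusted p = 0.22), and Rrh, an opsin of the same epithelium, one of -0.8 (SE 0.37, adjusted p = 0.23). For Rrh, 3 BrapcKO and 0 control libraries were under 0.582 CPM. In bulk RNA, fewer cells of a type and less RNA per cell cannot be told apart.

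Markers of the choroid plexus, the epithelium that makes cerebrospinal fluid and handles retinol through Ttr, were summed as well. They reached 357 to 1240 CPM in BrapcKO and 371 to 3750 CPM in control libraries, with 0 of 12 past the threshold by edgeR, DESeq2 or limma-voom and 0 at an unadjusted p under 0.05 in edgeR. Enpp2 had a log2 difference of -0.76 (SE 0.46, adjusted p = 0.38) and Kcnj13 one of -1 (SE 0.7, adjusted p = 0.45). The highest sum belonged to control 24. Of 13 meningeal fibroblast markers 2 were lower, Ogn (log2 difference -0.73, SE 0.18, adjusted p = 0.026) and Slc6a13 (-0.58, SE 0.15, adjusted p = 0.03), with summed levels of 224 to 295 CPM in BrapcKO and 236 to 270 CPM in control libraries. The count of 2 became 0 with group as the only term, with the Y-linked score added to the code, and without control 08 or BrapcKO 21, and 1 without control 09 or 23. It became 3 without control 24, and without BrapcKO 05 1 marker was higher beside the 2 lower. The part of these cells in the levels of Rpe65 and Aldh1a7 was not tested.

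Rdh10, at chr1:16105774-16133734 on the plus strand, encodes the enzyme that oxidises retinol to retinal in the first step of retinoic acid synthesis. It had 11.1, 10.6, 10.2, 13.1 and 13.4 CPM in BrapcKO 04, 05, 06, 07 and 21, against 11.4, 13, 8.9, 12.6 and 10.4 CPM in control 08, 09, 22, 23 and 24. Over all libraries the groups overlapped, with a log2 difference of 0.05 (SE 0.14). It was -0.12 in B1 alone and 0.32 in B2 alone, where BrapcKO 21 lay above every control library.

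Aldh1a1 and Aldh1a7 are neighbouring genes that arose by duplication and face each other on chromosome 19, Aldh1a1 at chr19:20492715-20643465 on the plus strand and Aldh1a7 at chr19:20692953-20727562 on the minus strand, 49487 bases apart. Aldh1a1 encodes a retinal dehydrogenase, which turns retinal into retinoic acid and in the brain is also known from dopamine neurons. Aldh1a7 encodes its rodent paralogue. Their transcripts (2066 bases for Aldh1a7 and 2053 for Aldh1a1, GENCODE M21) were identical at 90.3% of 2044 aligned positions. Of all stretches of 50 bases in the Aldh1a7 transcript, 7.49% were also found in an Aldh1a1 transcript, and of stretches of 100 bases 0.0508%, so some reads may have been divided between the pair. The windows from 250 bases before to 50 bases after a transcription start (RefSeq, GRCm38.p6) are shown because the levels of the pair differ in how they compare between the groups while their start regions are alike. The capitals mark runs of 10 or more bases identical in both.
Aldh1a7 (chr19:20727507-20727806, minus strand): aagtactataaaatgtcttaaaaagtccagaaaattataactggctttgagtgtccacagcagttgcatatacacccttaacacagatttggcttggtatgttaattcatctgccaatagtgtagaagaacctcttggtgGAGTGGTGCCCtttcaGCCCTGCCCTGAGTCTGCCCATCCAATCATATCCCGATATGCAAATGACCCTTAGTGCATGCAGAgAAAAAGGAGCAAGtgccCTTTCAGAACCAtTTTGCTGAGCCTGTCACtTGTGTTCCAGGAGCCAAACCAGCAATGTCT
Aldh1a1 (chr19:20601718-20602017, plus strand): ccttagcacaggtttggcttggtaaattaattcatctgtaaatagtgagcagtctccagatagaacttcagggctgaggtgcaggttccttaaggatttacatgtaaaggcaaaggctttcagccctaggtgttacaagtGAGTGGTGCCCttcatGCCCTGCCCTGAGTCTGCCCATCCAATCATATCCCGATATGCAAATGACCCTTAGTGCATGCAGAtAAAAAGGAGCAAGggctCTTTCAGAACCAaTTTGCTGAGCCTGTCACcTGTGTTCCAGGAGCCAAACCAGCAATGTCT
In a pairwise alignment 233 of 278 aligned positions (83.8%) were identical. The Aldh1a1 window shown was the one of its windows with the most identical positions, and another had 78.7% of aligned positions identical. Positions set against a gap were not counted, so both shares overstate the likeness of the whole windows. The capitals all lie in the part nearest the start.

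Aldh1a7 had 0.259, 0.337, 0.378, 0.635 and 0.496 CPM in BrapcKO 04, 05, 06, 07 and 21, against 1.27, 2.21, 2.08, 1.5 and 1.04 CPM in control 08, 09, 22, 23 and 24. All BrapcKO values were under all control values. The counts were 5 to 14 reads per BrapcKO library and 25 to 60 per control library, and the group sums gave 0.434 CPM in BrapcKO (46 reads, 0.318 to 0.579 CPM) and 1.6 CPM in control libraries (198 reads, 1.38 to 1.84 CPM). The log2 difference was -1.92 (SE 0.34), or 0.264-fold, with -2.09 in B1 alone and -1.64 in B2 alone.

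Aldh1a1 had 25.4, 32.2, 11.9, 24 and 27.5 CPM in BrapcKO 04, 05, 06, 07 and 21, against 17, 21.7, 43.3, 40.1 and 39.4 CPM in control 08, 09, 22, 23 and 24. The 3 highest values were the 3 B2 control libraries and the lowest was BrapcKO 06, with the groups overlapping. The log2 difference was -0.03 (SE 0.27). With the counts of both genes added together, as if no read could be assigned to 1 copy, it was -0.11 (SE 0.26), since Aldh1a1 supplied nearly all of the sum.

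Cyp26b1, at chr6:84571414-84593908 on the minus strand, encodes a hydroxylase that clears retinoic acid. It had 14.5, 9.77, 8.92, 21.9 and 10.1 CPM in BrapcKO 04, 05, 06, 07 and 21, against 6.82, 9, 12.3, 15.4 and 12.5 CPM in control 08, 09, 22, 23 and 24. BrapcKO 07 was the highest library and control 08 the lowest, and the groups overlapped. The log2 difference was 0.37 (SE 0.32), with 0.8 in B1 alone and -0.42 in B2 alone.

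Rara, at chr11:98927818-98974942 on the plus strand, encodes RAR alpha, the RAR known to be widely expressed in cortex. It had 15.3, 11.4, 12.8, 14.5 and 15.3 CPM in BrapcKO 04, 05, 06, 07 and 21, against 14.7, 15.9, 8.48, 12 and 12.7 CPM in control 08, 09, 22, 23 and 24. The spread was small and the groups overlapped, with a log2 difference of 0.06 (SE 0.16).

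Rarb, at chr14:16430839-16819156 on the minus strand, encodes RAR beta, and its promoter is the textbook example of one that retinoic acid acts on through RAR and RXR. The window around 1 of its starts (RefSeq, GRCm38.p6) is shown because it holds such an element. The capitals mark a pair of receptor-binding hexamers in the same direction with 5 bases between them, a spacing known as DR5.
Rarb (chr14:16575427-16575726, minus strand): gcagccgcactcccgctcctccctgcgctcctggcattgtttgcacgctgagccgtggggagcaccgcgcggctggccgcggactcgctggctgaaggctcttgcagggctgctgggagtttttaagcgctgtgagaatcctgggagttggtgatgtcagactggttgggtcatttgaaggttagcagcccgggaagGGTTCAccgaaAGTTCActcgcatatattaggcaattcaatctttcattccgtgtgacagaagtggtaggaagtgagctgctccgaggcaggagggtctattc
The pair begins 53 bases and ends 37 bases before the start. Both strands were searched for 4 hexamers that fit the receptors' known site. The first was AGGTCA. The next, with another first base, was GGGTCA. The third of these hexamers was AGTTCA. The fourth of these hexamers was GGTTCA. They were sought singly and as direct repeats with 1 (DR1), 2 (DR2) or 5 bases between them, and a repeat also counts as holding the single hexamer. DR5 was found in 32 of 32851 promoter windows (0.0974%), and among the windows of the retinoid genes only in that of Rarb. DR1 was found in 73 windows (0.222%) and DR2 in 88 (0.268%), none of them of these 9 genes. At least 1 single hexamer was in 14358 windows (43.7%) and in 8 of the 14 windows of 8 retinoid genes. A match of letters describes the sequence and is not evidence of binding.

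Rarb had 8.19, 9.49, 9.96, 9.33 and 39.2 CPM in BrapcKO 04, 05, 06, 07 and 21, against 6, 7.1, 31.6, 24 and 17.5 CPM in control 08, 09, 22, 23 and 24. The 4 highest values were the 4 B2 libraries, of both groups, and over all libraries the groups overlapped. Within B1 the 4 BrapcKO libraries, at 8.19 to 9.96 CPM, lay above both control libraries, and within B2 BrapcKO 21 lay above all 3 control libraries. BrapcKO 21 also lay above all 3 B2 control libraries for Rbp4, Rdh10 and Rara. It lay below them for Rpe65, Aldh1a1, Aldh1a7 and Cyp26b1, so lying outside their range was not particular to Rarb. The log2 difference of Rarb with the code as a term was 0.57 (SE 0.16), with 0.5 in B1 alone and 0.67 in B2 alone. With group as the only term it was -0.18 (SE 0.6), in a fit where 4.32% of all genes (617) passed the threshold, 594 of them shared with the fit that had the code as a term.

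Exons of Rarb overlap those of Top2b, a topoisomerase gene on the opposite strand, and an antisense transcript, and no source used here gives the strand setting of the counting. Top2b had 249 ± 8.93 CPM in BrapcKO and 233 ± 35.3 CPM in control libraries (SD, n = 5 each), and its log2 difference was 0.04 (SE 0.10).

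Rxrg, at chr1:167598384-167639623 on the plus strand, encodes RXR gamma, a partner of the RARs. Its promoter window (RefSeq, GRCm38.p6) is shown for contrast with that of Rarb, with the letters of a single hexamer, read on the opposite strand, in capitals.
Rxrg (chr1:167598112-167598411, plus strand): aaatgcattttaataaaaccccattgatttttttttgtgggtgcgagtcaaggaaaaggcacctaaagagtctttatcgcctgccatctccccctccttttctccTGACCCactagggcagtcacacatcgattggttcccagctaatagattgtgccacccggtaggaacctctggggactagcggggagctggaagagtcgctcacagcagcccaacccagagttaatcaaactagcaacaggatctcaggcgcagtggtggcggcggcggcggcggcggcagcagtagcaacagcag
None of DR1, DR2 and DR5 was found in this window, which says nothing of other stretches of the gene.

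Rxrg had 13.9, 14.3, 18.7, 16.3 and 26.2 CPM in BrapcKO 04, 05, 06, 07 and 21, against 7.99, 10.5, 19.1, 14.7 and 12.7 CPM in control 08, 09, 22, 23 and 24. The groups overlapped over all libraries, while within each code every BrapcKO value lay above every control value. In B2 that rested on BrapcKO 21 alone, which lay outside the range of the B2 control libraries for all 9 genes. The log2 difference was 0.77 (SE 0.14), or 1.7-fold, with 0.77 in B1 alone and 0.74 in B2 alone. Without the code as a term it was 0.46.

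**Figure D2:**
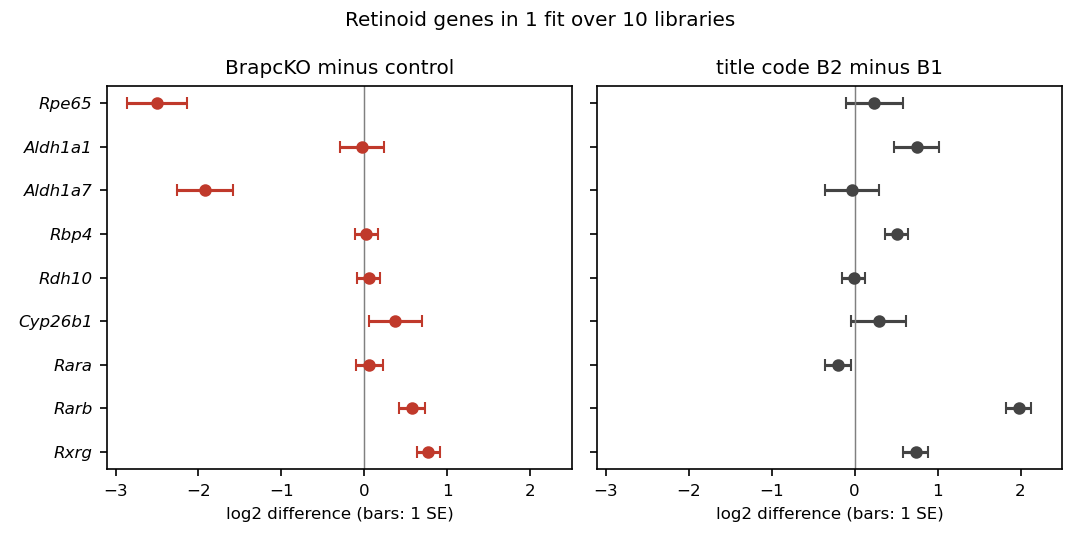
Log2 difference of each retinoid gene with 1 SE, from 1 edgeR fit over 10 libraries, as BrapcKO minus control (left) and as title code B2 minus B1 (right). Rpe65 (-2.5) and Aldh1a7 (-1.92) stand lowest on the left, and Rarb (1.98) stands highest on the right.

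The title code took no part in the choice of the genes, and its effect, with group as a term, was tested by edgeR. Of the 9 retinoid genes 3 were higher in B2 than in B1 and 0 lower (0 lower also at an unadjusted p under 0.05), where 25.1% of all genes passed (3589 of 14276) and 13.4% of all genes passed as higher in B2 (1907 of 14276). Rarb rose most among the 9, with 17.5 to 39.2 CPM in the 4 B2 libraries, against 6 to 9.96 CPM in the 6 B1 libraries. The code groups did not overlap, and the log2 difference was 1.98 (SE 0.15, 95% interval 1.64 to 2.31, 3.93-fold, adjusted p = 6.9e-07). Top2b, which shares exon positions with it, had a log2 difference of -0.17 (SE 0.10) between the codes.

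Rxrg had 12.7 to 26.2 CPM in B2 and 7.99 to 18.7 CPM in B1 libraries, with a log2 difference of 0.74 (SE 0.15, 95% interval 0.42 to 1.05, adjusted p = 0.0023). Rbp4 had 8.03 to 11.1 CPM in B2 and 6.12 to 8.29 CPM in B1 libraries, with a log2 difference of 0.51 (SE 0.14, 95% interval 0.21 to 0.82, adjusted p = 0.017). Both overlapped between the codes. Without BrapcKO 21 the value for Rbp4 was 0.35 (adjusted p = 0.21) and without control 09 it was 0.47 (adjusted p = 0.067), so its call rested on these libraries. Rarb and Rxrg passed with any of the 10 libraries left out, Rarb at 1.88 to 2.08 and Rxrg at 0.65 to 0.83.

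Aldh1a1 missed the threshold, with a log2 difference between the codes of 0.75 (SE 0.27, 95% interval 0.16 to 1.35, adjusted p = 0.065). Rpe65 had one of 0.24 (95% interval -0.49 to 0.97) and Aldh1a7 one of -0.03 (-0.76 to 0.69). Rdh10, Cyp26b1 and Rara also did not pass, at -0.01, 0.29 and -0.2. Depth moved with the code, as given above, and its part was not tested.

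Markers of the striatum, which borders the cortex at dissection and in which Rarb and Rxrg are known to be high, were followed in the same fit. Of 17 markers, none of them a retinoid gene of this list, 9 rose in BrapcKO libraries and 0 fell, with a median log2 difference of 0.72 against 0.01 over all genes. The opioid peptide gene Penk averaged 273 ± 103 CPM in BrapcKO and 118 ± 38 CPM in control libraries (SD, n = 5 each), and its log2 difference was 1.48 (SE 0.19, adjusted p = 0.0013 by edgeR). Pdyn, another opioid peptide gene, averaged 45.5 ± 17.6 CPM in BrapcKO and 24.9 ± 5.19 CPM in control libraries, a log2 difference of 1.05 (SE 0.18, adjusted p = 0.0043). The count of 9 became 3 without BrapcKO 21, 5 without control 08, 2 with group as the only term and 1 with the Y-linked score added to the code, while the median stayed at 0.49 or more in each.

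The summed level of the 17 striatal markers was 1250, 1450, 1400, 1770 and 2150 CPM in BrapcKO 04, 05, 06, 07 and 21, against 816, 1110, 1550, 1170 and 899 CPM in control 08, 09, 22, 23 and 24. BrapcKO 21, the highest library for Rarb and Rxrg, was also the highest here, and control 22, the highest control library for both receptors, was the highest control library here. Among control libraries the sums were 816 and 1110 CPM in B1 and 899 to 1550 CPM in B2. Rarb in the same libraries was 6 and 7.1 CPM in B1 and 17.5 to 31.6 CPM in B2. In the test of B2 against B1, 4 of the 17 markers were higher and 0 lower. Their median log2 difference between the codes was 0.51, against -0.02 over all genes. The part of striatal tissue in the levels of Rarb and Rxrg was not tested.

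**Figure D3:**
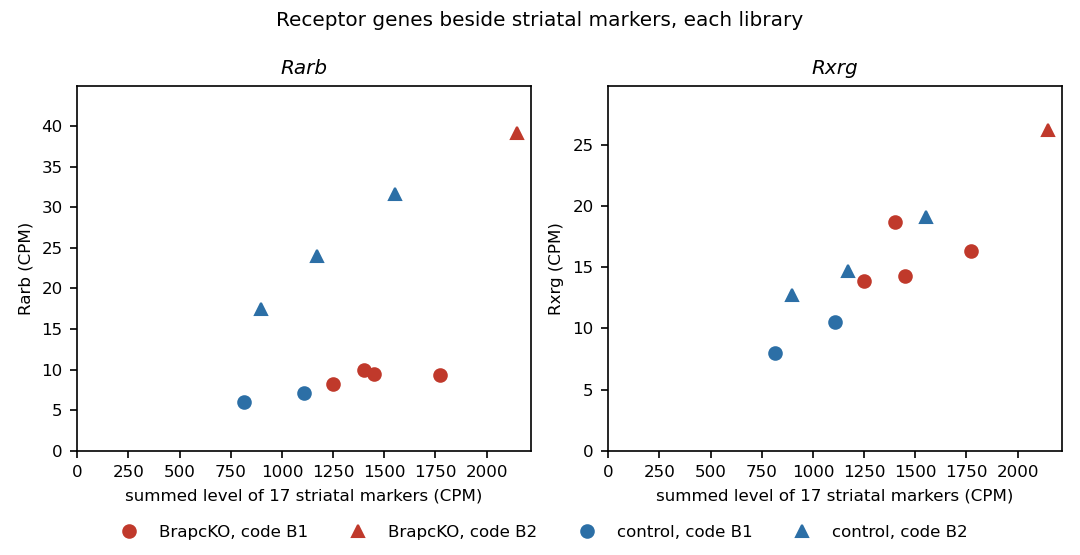
Level of Rarb (left) and Rxrg (right) in CPM against the summed CPM of 17 striatal markers, 1 point per library, with BrapcKO in red, control in blue, circles for title code B1 and triangles for B2. BrapcKO 21 is the highest point in both panels (39.2 and 26.2 CPM), and for Rarb all B2 libraries lie above all B1 libraries.

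Other cell type markers also moved with the groups. Inhibitory neuron markers rose for 5 of 11, among them Gad2 (log2 difference 1.23, SE 0.13, adjusted p = 3e-04) and Gad1 (0.57, SE 0.11, adjusted p = 0.0077), which make the transmitter GABA and are also high in striatum. Microglia markers rose for 3 of 12, with summed levels of 485 to 1370 CPM in BrapcKO and 340 to 368 CPM in control libraries, among them C1qa (1.48, SE 0.33, adjusted p = 0.025) and C1qb (1.46, SE 0.37, adjusted p = 0.041). Excitatory neuron markers fell for 4 of 10, among them Neurod1 (-0.71, SE 0.12, adjusted p = 0.0043) and Rorb (-0.83, SE 0.15, adjusted p = 0.0067). In layer 5 neurons 1 of 8 markers rose and 2 fell, Etv1 (-0.66, SE 0.11, adjusted p = 0.0033) and Qrfpr (-1.21, SE 0.29, adjusted p = 0.024). Astrocyte, oligodendrocyte and endothelial markers, 12 of each, had 0 calls by edgeR and limma-voom, and DESeq2 called 1 oligodendrocyte marker, lower. At an unadjusted p under 0.05 in edgeR, 0 astrocyte markers, 5 oligodendrocyte markers (lower) and 2 endothelial markers (higher) passed. The median log2 differences of the 3 lists were 0 for astrocyte, -0.26 for oligodendrocyte and 0.08 for endothelial markers. Glul (-0.23, adjusted p = 0.26 by edgeR) was the lowest astrocyte marker, while Aldoc (0.17, adjusted p = 0.33) lay above 0. Mal, an oligodendrocyte marker, had -0.39 (adjusted p = 0.15), and Vwf was the highest endothelial marker (1.04, adjusted p = 0.14). With the Y-linked score added to the code the counts became 2 for inhibitory neuron, 0 for microglia and 1 for excitatory neuron markers, and with group as the only term 2, 3 and 2. Without BrapcKO 21 they became 2 higher and 1 lower for inhibitory neuron markers, 0 for microglia and 1 lower for excitatory neuron markers. The microglia count was also 0 without control 08, 09, 23 or 24, 1 without control 22 or BrapcKO 06, and 7 without BrapcKO 05. Without control 08 the inhibitory count was 2 and without control 09 it was 3. The layer 5 marker that rose was not called with group as the only term, with the Y-linked score added, or without control 08, 09 or 23 or BrapcKO 07 or 21. The lower layer 5 markers became 1 without BrapcKO 21 or with the Y-linked score added, and 3 without control 24 or BrapcKO 04. The part of these cells in the levels of the retinoid genes was not tested.

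Genotype within a group was a comparison that took no part in the choice of the genes, fitted over 4 genotypes with the code as a term. Between flox/flox Cre- and flox/wt Cre- libraries edgeR called 0 genes (DESeq2 4, limma-voom 0), with 7.09% of genes at an unadjusted p under 0.05 (1012 genes) and 0 of the 9 retinoid genes. Between the flox/ko and flox/flox genotypes of the Cre+ libraries it called 0 genes (DESeq2 83, limma-voom 0), with 6.72% at an unadjusted p under 0.05 (960 genes) and again 0 of the 9. The intervals were wide for the low genes, for example -1.96 to 0.81 for the log2 difference of Rpe65 between flox/ko Cre+ and flox/flox Cre+.

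The knockout alleles could be compared as 2 pairs. For Rpe65 the log2 difference was -2.62 (SE 0.47) for flox/ko Cre+ minus flox/wt Cre- and -2.21 (SE 0.57) for flox/flox Cre+ minus flox/flox Cre-. For Aldh1a7 these were -1.83 (SE 0.45) and -2.19 (SE 0.58), for Rarb 0.44 (SE 0.19) and 0.79 (SE 0.25), and for Rxrg 0.7 (SE 0.19) and 0.89 (SE 0.23). In these fits 4.84% of all genes (691) passed for the flox/ko pair and 0.736% (105) for the flox/flox pair. The difference between the pairs was tested, and edgeR called 0 genes (DESeq2 37, limma-voom 0), with 6.12% at an unadjusted p under 0.05 (873 genes). Among the 9 only Rara had an unadjusted p under 0.05, with a difference between pairs of 0.66 (SE 0.26, unadjusted p = 0.03, adjusted p = 0.8), which fails the correction. The 95% intervals of that difference were -2.01 to 1.19 for Rpe65, -1.22 to 1.94 for Aldh1a7, -1 to 0.3 for Rarb and -0.81 to 0.43 for Rxrg.

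The rest of the pathway was followed in lists of 72 further genes, of which 49 had a row among the genes analysed here. By edgeR 1 was higher in BrapcKO, 3 were lower and 45 did not pass, beside 3.12% of all genes higher and 4.95% lower. The 4 calls of 49 are near the share over all genes, 8.07%, so nothing about the pathway is read from their count. The median log2 difference was -0.07, against 0.01 over all genes. Of the 22 genes that carry, store, oxidise or directly receive retinoids 0 passed by edgeR and limma-voom, and 1 by DESeq2, while 3 higher and 1 lower had an unadjusted p under 0.05 in edgeR. The 4 calls were among RXR's other partners and among genes known to respond to retinoic acid.

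Among 7 genes of transport and binding, 0 passed by edgeR. Crabp1, a cellular retinoic acid-binding protein, had 0.393 to 1.7 CPM in BrapcKO and 0.203 to 1.25 CPM in control libraries (log2 difference 1.14, SE 0.37, adjusted p = 0.083), and the groups overlapped. Its levels were low, with 1 BrapcKO and 2 control libraries under 0.582 CPM. Ttr, which carries Rbp4 in plasma and is a choroid plexus gene, averaged 273 ± 200 CPM in BrapcKO and 599 ± 892 CPM in control libraries (SD, n = 5 each), a spread wider than the difference.

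The 2 genes of storage and carotenoid cleavage, Dgat1 (log2 difference 0.12, SE 0.09) and Bco2 (0.19, SE 0.3), did not pass, nor did any of 8 retinol and retinal oxidoreductases, whose differences ran between -0.5 for Rdh12 and 0.22 for Rdh14. Both remaining retinal dehydrogenases had values below 0, -0.73 (SE 0.34, adjusted p = 0.23) for Aldh1a3 and -0.17 (SE 0.13, adjusted p = 0.47) for Aldh1a2. For Aldh1a3, 2 BrapcKO and 0 control libraries were under 0.582 CPM. The other CYP26 hydroxylases were not analysed here. The other 3 receptors had log2 differences of 0.01 (SE 0.17, Rarg), -0.07 (SE 0.11, Rxra) and 0.05 (SE 0.08, Rxrb). Rxrb was the steadiest of them, at 43.8 to 49.9 CPM in BrapcKO and 42.5 to 48 CPM in control libraries.

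Nr4a1 and Nr4a2, nuclear receptors that can pair with RXR and are also known as genes switched on by neuronal activity, were lower. Nr4a1 had 53.8, 46.6, 24.5, 36.3 and 22.1 CPM in BrapcKO 04, 05, 06, 07 and 21, against 145, 115, 88.1, 190 and 81.2 CPM in control 08, 09, 22, 23 and 24. The groups did not overlap (log2 difference -1.94, SE 0.34, adjusted p = 0.0079), and the call was lost without BrapcKO 21 (-1.69, adjusted p = 0.061) and where the Y-linked score replaced the code (-1.8, adjusted p = 0.068). Nr4a2 had 22.5 to 32.3 CPM in BrapcKO and 45.5 to 69.2 CPM in control libraries, again with no overlap (log2 difference -1.17, SE 0.14, adjusted p = 0.00057), and it passed with any of the 10 libraries left out.

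Pparg, the lipid-sensing partner of RXR, had 2.8 to 5.28 CPM in BrapcKO and 3.71 to 9.26 CPM in control libraries (log2 difference -0.79, SE 0.19, adjusted p = 0.021). It did not pass without control 09 (-0.66, adjusted p = 0.14), without BrapcKO 21 (-0.83, adjusted p = 0.083), with group as the only term (-0.52, adjusted p = 0.31), with the Y-linked score in place of the code (-0.54, adjusted p = 0.54) or in B1 libraries only (-0.82, adjusted p = 0.063). The other 7 RXR partners, among them the thyroid hormone receptor gene Thrb (-0.37, SE 0.11, adjusted p = 0.054), did not pass by edgeR's quasi-likelihood test. Thrb did pass by DESeq2, by edgeR's likelihood-ratio test and without control 24. Of 10 receptor cofactors 0 passed by edgeR and limma-voom, 1 by DESeq2 (Ncoa3), and 2 were lower at an unadjusted p under 0.05 in edgeR, the coactivator Ncoa3 (-0.29, SE 0.09, adjusted p = 0.074) and Nrip1 (-0.27, SE 0.09, adjusted p = 0.088).

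Among 12 genes known to respond to retinoic acid, Meis2, a homeobox gene also known from striatal neurons, was the 1 that rose, with 135 to 164 CPM in BrapcKO and 98.8 to 157 CPM in control libraries (log2 difference 0.4, SE 0.1, adjusted p = 0.034). It passed in 5 of 10 fits that left out 1 library, failing without control 08, 09 or 23 or BrapcKO 07 or 21, at values of 0.32 to 0.47 over the 10. It also did not pass with group as the only term (0.29, adjusted p = 0.2), with the Y-linked score added to the code (0.39, adjusted p = 0.22) or in its place (0.24, adjusted p = 0.56), or in B1 libraries only (0.47, adjusted p = 0.058). Drd2, a dopamine receptor gene that also stands in the striatal list, had a log2 difference of 0.72 (SE 0.21, adjusted p = 0.052). Rarres1, at -0.45 (SE 0.38), and Tgm2, at 0.38 (SE 0.16), did not pass, nor did the rest of the list.

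**Figure D4:**
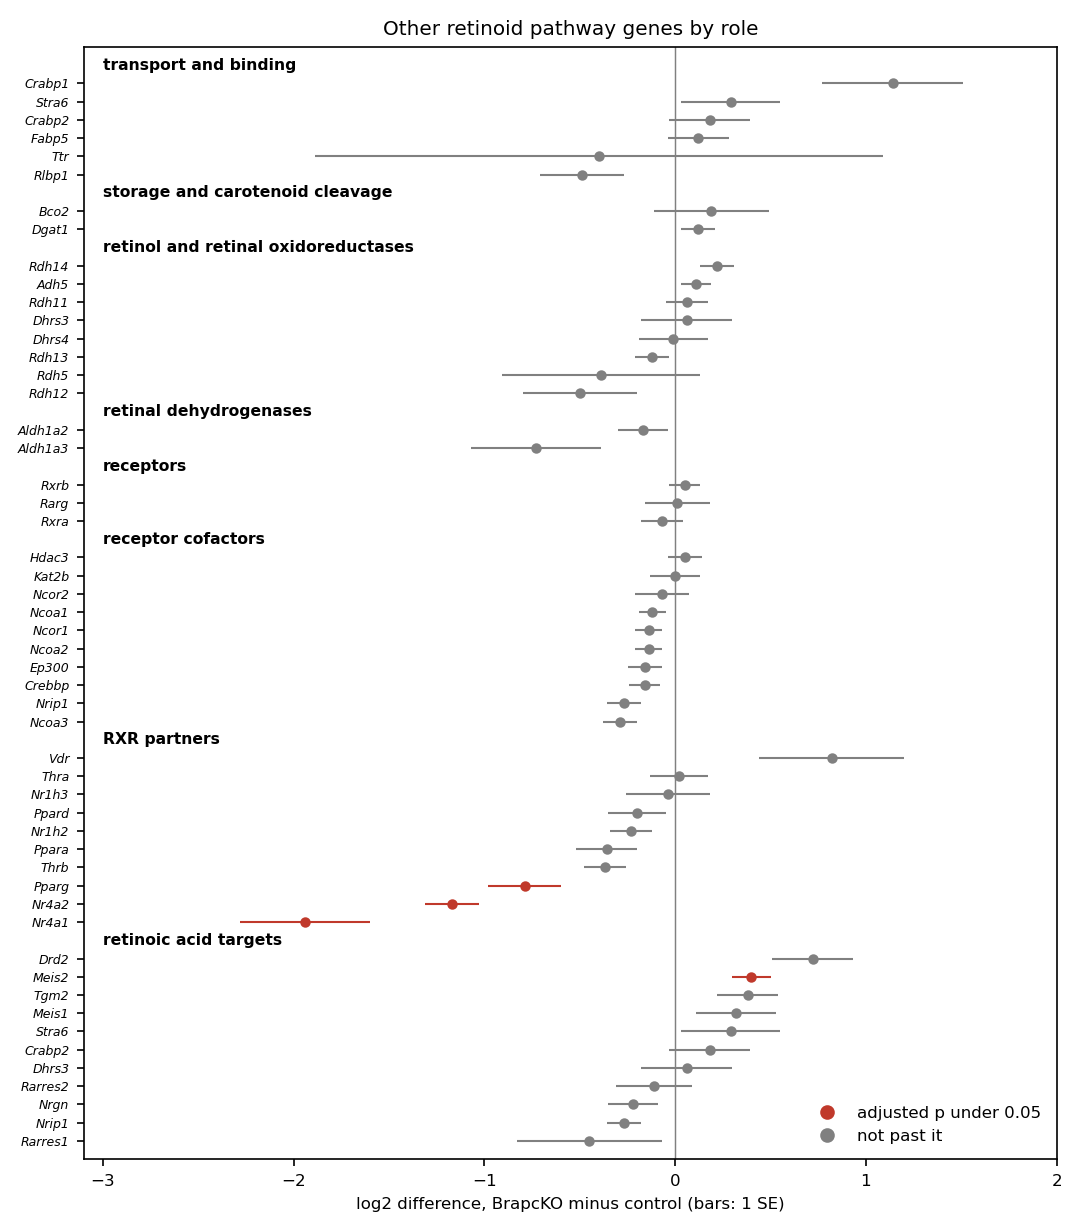
Log2 difference, BrapcKO minus control, with 1 SE, for further retinoid pathway genes by role, where red marks an adjusted p under 0.05 and genes with 2 roles are drawn under both. Nr4a1 (-1.94), Nr4a2 (-1.17) and Pparg (-0.79) lie below 0 among the RXR partners, Meis2 (0.4) above 0 among the targets, and the receptors Rarg, Rxra and Rxrb near 0.

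Over the whole table more genes passed between the codes (25.1%) than between the groups (8.07%). Of the 49 further pathway genes, 5 were higher in B2, 9 were lower and the rest were not called. The genes higher in B2 included the lipid-binding protein gene Fabp5 (log2 difference 1.54, SE 0.16, adjusted p = 1.3e-05) and Crabp1 (1.73, SE 0.36, adjusted p = 0.0035). Crabp1 was low throughout, at 0.203 to 1.03 CPM in B1 and 1.08 to 1.7 CPM in B2 libraries. Of the 10 cofactors 6 were lower in B2, by values between -0.55 for Ep300 and -0.32 for Ncor1, while 0 were higher. Over all 14276 genes, 1682 were lower in B2 and 1907 higher.

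For each of the 9 genes, the genes most alike across the 10 libraries were taken by Pearson's r of log2 CPM over 13866 genes. These r values describe libraries that share the group and the code, and are given with the r left after both were removed. Each was among the 2 highest of 13866 values over only 10 libraries, so a high r can come from the choice alone. The r after removal was taken on the same libraries for pairs already picked, and is not a separate check. Rpe65 was most like Ccnd2 (0.98, and 0.82 after removal), a cyclin gene, and Ephb1 (0.97, and 0.77), an ephrin receptor gene. Aldh1a7 was most like Tmem218 (0.98, and 0.9) and Mat2b (0.97, and 0.82). Rarb was most like Cebpzos and Rab5a (both 0.99, and 0.87 and 0.82), and Rxrg was most like Slc35d3 and Ppp1r1b (both 0.96, and 0.86 and 0.78), the last being the gene of DARPP-32 and 1 of the 17 striatal markers.

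Aldh1a1 was most like Tex9 (0.95, and 0.95 after removal) and Cdhr1 (0.93, and 0.87). Rbp4 was most like Ptrhd1 (0.92, and 0.78) and Fam43b (0.92, and 0.7). Rara was most like Sdad1 (0.93, and 0.91) and Vti1a (0.9, and 0.89). Cyp26b1 was most like Dmrtc1a (0.88, and 0.87) and Fam118a (0.86, and 0.87), and Rdh10 like Iffo2 (0.86, and 0.93) and Rnf19a (0.84, and 0.94). No gene among these 18 was itself one of the 9.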

How the data were processed

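Cerebral cortex RNA of 10 libraries was measured, 5 BrapcKO and 5 control, after ribosomal RNA depletion per the labels' protocols. The deposited table gives unnormalised read counts, 1 row per gene and 1 column per library. FastQC, Subread, featureCounts, DESeq2 and edgeR and the builds mm10 and GRCm38 are named in the submitters' processing notes, and no source used here gives their versions or the strand setting. Of 14276 identifiers, 14271 matched GENCODE M21 once versions were removed, 13492 in the same version.

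From these counts, edgeR 4.0.16 in R 4.3.3 fitted a quasi-likelihood model (robust, TMM scaling, filterByExpr, which removed 0 genes) with title code and group as terms. Benjamini-Hochberg adjustment ran over all genes, with a threshold of 0.05. CPM used TMM-scaled totals and log2 CPM for likeness a prior count of 1. A second fit had the 4 genotypes and the code. SE is the log2 difference divided by the square root of F. DESeq2 1.42.0, limma-voom (limma 3.58.1), other scalings, filters, terms and left-out libraries were alternatives. The fit was tested on simulated data. Promoter windows come from RefSeq (GRCm38.p6), for 8 of the 9 genes, and alignments from Biopython 1.88.

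The 9 genes, the lists and the alternatives were chosen with earlier results of these data known. Genes named beside the 9 were those called in each pathway list, otherwise up to 2 with the smallest p, up to 2 per marker list, and the 2 most alike per gene, leaving out predicted genes, plus Brap. Top2b, Ttr, Rarg, Drd2, Thrb, Fabp5, Tgm2, Ep300, Ncor1 and the genes given as ends of a range were added after their values were seen. The code's meaning is unknown, and it is treated as a label of library sets. Results of some listed genes are not reported here, and counts over a list include them.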

Additional observations from a re-analysis of the deposited data

Results flagged for a closer look

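In 50 groups of 5 libraries (each retinoid gene and each named pathway gene, in BrapcKO and in control), 3 had 1 library far from the others by Dixon's test, whose critical value for 5 samples is 0.71. Chance alone flags about 1 in 20 groups. Rarb in BrapcKO 21 stood at 39.2 CPM, with the other BrapcKO libraries at 8.19 to 9.96 CPM. Rbp4 in BrapcKO 21 stood at 11.1 CPM, with the others at 6.12 to 7.04 CPM. BrapcKO 21 is the 1 BrapcKO library of title code B2, so library and code cannot be told apart within the BrapcKO group. Bco2, a carotenoid-cleaving enzyme gene, stood at 5.28 CPM in BrapcKO 05, with the others at 2.02 to 2.88 CPM.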

How the results depend on the processing

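Over 23 or 24 alternatives per gene, the log2 differences of Rpe65 ran between -2.88 and -2.21 and those of Aldh1a7 between -2.19 and -1.63. Rarb was -0.18 with group as the only term and -0.64 with a score of Y-linked reads in place of the code, and Rxrg was 0.28 with that score. The 9 genes were picked on this contrast, so nothing is read from how many of them passed in each setting. Counts over all genes of the table stand in brackets. With group only 2 of the 9 passed (617), with code and Y-linked score 2 (328), and with that score in place of the code 1 (91). In B1 libraries only 2 passed (415), in the flox/ko pair 2 (691) and in the flox/flox pair 0 (105). Where 5 libraries had to reach 5 CPM 2 passed (962), a filter that removed Rpe65 and Aldh1a7. With 1 library left out 2 to 4 passed (406 to 1454). With 1 library left out Rarb lay between 0.49 and 0.66 and Rxrg between 0.67 and 0.86.

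Counts over all genes were 617 with group only, 328 with code and Y-linked score, 91 with that score alone, 415 in B1 libraries, and 406 (without BrapcKO 21) to 1454 with 1 library left out. For the pathway genes the count of 4 became 2 with group only, 1 with the Y-linked score alone, 8 by DESeq2, 8 by edgeR's likelihood-ratio test, 2 in B1 libraries, and 1 to 7 with 1 library left out. Calls of B2 against B1 ran between 2314 and 3987 with 1 library left out. DESeq2 gave 4, 83 and 37 genes for flox/flox Cre- against flox/wt Cre-, flox/ko Cre+ against flox/flox Cre+ and the difference between pairs, and leaving out 1 library gave 0 to 362, 0 to 124 and 0 to 32. The causes were not tested. The alternatives for the count of the 9 genes and for single genes between codes, the pathway count in B1 libraries and the marker counts under other settings were added after seeing the data. Between codes, Aldh1a1 passed in 6 of 18 alternatives. Counts of 2 to 14 reads per BrapcKO library limit Rpe65 and Aldh1a7. No paired analysis was possible because the groups share no replicate numbers.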
